A study of Mus musculus with 12 samples.

Results

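Transcripts of the amino acid arm of the integrated stress response were followed in GT1-7 cells, a line of mouse hypothalamic neurons that secretes gonadotropin-releasing hormone (GnRH). The set held 35 listed gene symbols: the transcription factor Atf4 and 4 partners, 5 stress effectors, 6 enzymes of amino acid and one-carbon synthesis, 4 amino acid transporters and 15 cytosolic aminoacyl-tRNA synthetases. The rule used gene symbols and no measured value, on a list drawn up with earlier results of these data known. All 35 symbols were found. Ddit3 occurred under 2 Ensembl gene IDs, which share bases and are not separate observations, so the set came to 36 genes of the 12786 that were listed in any of the deposited tables. All 36 passed the filter on low counts and were tested in each comparison.

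When eIF2alpha, a subunit of the initiation factor eIF2, is phosphorylated by the kinases PERK, GCN2, PKR or HRI, general translation slows while the Atf4 mRNA is translated more. The ATF4 protein, often as a dimer with a C/EBP factor, then binds genes that import and make amino acids and load them onto tRNAs. The arm also carries its own brakes, among them the phosphatase subunit encoded by Ppp1r15a and the pseudokinase encoded by Trib3. Because ATF4 is controlled largely at translation, the level of the Atf4 mRNA need not follow the level of the protein, which was not measured here.

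The series compared 3 groups of 4 samples of this line, all grown in DMEM with 10% fetal bovine serum. Cells of the Klf4 siRNA group were transfected for 24 h with an siRNA directed at the transcription factor gene Klf4, in Opti-MEM I with lipofectamine 2000. Scramble cells received a scrambled siRNA in the same way. Vehicle cells, for which no transfection is described, went without serum for 6 h and then spent 1 h in DMEM free of Ca2+ before collection. Scramble and Vehicle therefore differ in transfection, in the medium and in its serum and Ca2+, and these cannot be told apart. Each group is a treatment of 1 cell line. The labels do not say whether the samples within a group came from separate cultures, so the p-values measure the spread between these samples, which may be technical. The 3 comparisons were Klf4 siRNA over Scramble, Scramble over Vehicle and Klf4 siRNA over Vehicle. Any pair of them shares 4 samples, so their results are not independent of each other.

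The summed counts of a sample lay between 30041486 and 33481453 in Klf4 siRNA, 25992363 and 39674984 in Scramble, and 28451562 and 35560442 in Vehicle. Klf4 itself fell to 34.6% of Scramble (log2 fold change -1.53, SE 0.19, edgeR adjusted p = 5.8e-05) and to 29.3% of Vehicle. Its level was low throughout, at 0.93 to 1.80 CPM in Klf4 siRNA, 3.43 to 4.61 CPM in Scramble and 4.27 to 5.56 CPM in Vehicle. In Scramble over Vehicle Klf4 did not pass (log2 fold change -0.24, edgeR SE 0.14, adjusted p = 0.157). Klf4 siRNA samples 1 and 4 stood apart in the gene model Gm10800, with 25825 and 10572 counts, against 687 and 259 counts in samples 2 and 3, so the counts of members below are also given without these samples. Of the 10 genes taken as markers of the GnRH neuron line, 9 were listed, Gnrh1 among them, and Snap25 was not. Their summed level was 1265 to 1438 CPM in Klf4 siRNA, 2299 to 2670.1 CPM in Scramble and 1297 to 1495 CPM in Vehicle. Gnrh1 carried most of this gap, with 670.4 to 826 CPM in Klf4 siRNA, 1521 to 1851 CPM in Scramble and 601 to 754 CPM in Vehicle. The other 8 genes summed to 581 to 618 CPM in Klf4 siRNA, 778 to 846 CPM in Scramble and 697 to 741 CPM in Vehicle. Of the genes taken as markers of other cells, 4 of 5 were listed for fibroblasts, 2 of 6 for microglia, 2 of 5 for oligodendrocytes, 1 of 5 for astrocytes and 1 of 4 for endothelium. The fibroblast genes summed to 84.2 to 97.1 CPM in Klf4 siRNA, 109 to 116 CPM in Scramble and 145 to 152 CPM in Vehicle. Without Col1a2, the highest of them, they summed to 10.2 to 15.7 CPM in Klf4 siRNA, 26.01 to 31.7 CPM in Scramble and 26.5 to 32.97 CPM in Vehicle, where Scramble and Vehicle overlapped. The endothelial gene stood at 14.9 to 19.4 CPM in Klf4 siRNA, 33.3 to 41.7 CPM in Scramble and 47.8 to 54.5 CPM in Vehicle. The fibroblast sum and the endothelial gene were lowest in Klf4 siRNA and highest in Vehicle, without overlap. The microglial genes summed to 35.2 to 39.4 CPM in Klf4 siRNA, 33.5 to 37.4 CPM in Scramble and 40.9 to 48.99 CPM in Vehicle. The astrocyte gene stood at 20.4 to 26.2 CPM in Klf4 siRNA, 10.3 to 13.8 CPM in Scramble and 14.1 to 20.5 CPM in Vehicle. The oligodendrocyte genes summed to 4.62 to 5.04 CPM in Klf4 siRNA, 4.92 to 6.44 CPM in Scramble and 6.57 to 7.87 CPM in Vehicle. Gfap, Aqp4, S100b, Slc1a3, Aif1, Cx3cr1, P2ry12, Ptprc, Pecam1, Cldn5, Cdh5, Lum, Mog, Mag and Olig2 were not listed. The part of these shifts in the results was not tested, and in bulk RNA a change in the cells present and a change in RNA per cell cannot be told apart.

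ATF4 dimers with C/EBP factors bind the C/EBP-ATF response element, searched here as TGATGNAA on both strands, with N for any base. The promoter windows ran from 250 bases before to 50 bases after each RefSeq gene start, on assembly GRCm38.p6. The windows of 26 of the 35 symbols are reported. No window was found for Nars, Lars, Hars, Wars, Cars, Vars, Slc7a5 and Slc1a5. The element stood in 7 of the 26 (26.9%), against 1219 of all 27025 genes with a window (4.51%). The members were chosen around ATF4 and its targets, so these shares are a description and no test. By role, it was found in 2 of 5 effectors, 1 of 6 synthesis enzymes, 4 of 8 synthetases, 0 of 5 transcription factors and 0 of 2 transporters. The stretches of 30 bases that hold each match are shown so that the matches can be read with the bases around them. They are oriented to read TGATGNAA, with the element in capitals, and the strand named is the genome strand that is printed. The distance given runs from the gene's start to the upstream end of the match.
Trib3, chr2:152344028-152344057, plus strand, 14 bases after the start: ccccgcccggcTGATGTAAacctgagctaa
Chac1, chr2:119351038-119351067, minus strand, 193 bases before the start: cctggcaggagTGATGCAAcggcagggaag
Asns, chr6:7693214-7693243, minus strand, 23 bases before the start: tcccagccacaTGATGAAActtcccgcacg
Gars, chr6:55037960-55037989, minus strand, 30 bases before the start: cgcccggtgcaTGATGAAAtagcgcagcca
Yars, chr4:129189895-129189924, plus strand, 3 bases after the start: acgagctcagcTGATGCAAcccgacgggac
Tars, chr15:11399655-11399684, plus strand, 15 bases before the start: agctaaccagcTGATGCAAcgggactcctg
Iars, chr13:49682126-49682155, minus strand, 7 bases after the start: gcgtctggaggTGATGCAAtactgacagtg
Each of these genes held 1 match. The base left free by the search was C in 4 of the 7 matches, A in 2 and T in 1. A match is a description of these letters and no evidence of binding, and the absence of one says only that the letters are not in this window.

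Of the members, 15 rose and 1 fell in Klf4 siRNA over Scramble, while 20 did not pass the threshold (edgeR, Benjamini-Hochberg adjusted p under 0.05 over all genes tested). Those that rose were Ddit3 under both IDs, Atf4, all 5 effectors, Asns, Phgdh and the synthetases Sars, Nars, Eprs, Gars and Aars. The member that fell was the transporter gene Slc7a5. The calls covered 44.4% of members, against 36% of all 12663 genes tested, and the rises covered 41.7% of members against 18.5% of all genes. The fall covered 2.78% of members, against 17.5% of all genes. The median log2 fold change was 0.15 for members and -0.00018 for all genes, and the members' values ran from -0.32 to 1.01. Without Klf4 siRNA samples 1 and 4, 18 members rose and 1 fell, with Cebpb, Shmt2 and Slc3a2 added to the rises.

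Against Vehicle, Scramble showed the reverse balance: 24 members fell, 2 rose and 10 did not pass. All 6 synthesis enzymes fell, as did 4 of 5 effectors, 4 of 6 transcription factor genes, 8 of 15 synthetases and 2 of 4 transporters. The members that rose were Ddit4 and Cebpg. Calls covered 72.2% of members and 53.9% of all 12633 genes tested, and falls covered 66.7% of members and 26.6% of all genes. Rises covered 5.56% of members and 27.3% of all genes. The median log2 fold change was -0.24 for members and 0.0052 for all genes. The count of members that rose was 4 in place of 2 without Scramble 1, where Wars and Lars were added, and also 4 without Vehicle 2, where Wars and Hars were added.

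Between Klf4 siRNA and Vehicle, 5 members rose, 18 fell and 13 did not pass. Ddit4, Cebpg, Sesn2, Slc1a5 and Nars rose. Ppp1r15a, Trib3, Cebpb, Atf4, 5 of 6 synthesis enzymes, 3 of 4 transporters and 6 of 15 synthetases fell. Calls covered 63.9% of members and 45.4% of all 12684 genes tested, with falls at 50% of members and 21.3% of all genes. Rises covered 13.9% of members and 24.1% of all genes. The median log2 fold change was -0.14 for members and 0.019 for all genes. Without Klf4 siRNA samples 1 and 4, 3 members rose and 14 fell. Slc1a5, Nars, Psph, Mthfd2, Sars, Yars and Tars then lost their call, and the short Ddit3 ID fell.

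**Figure D1:**
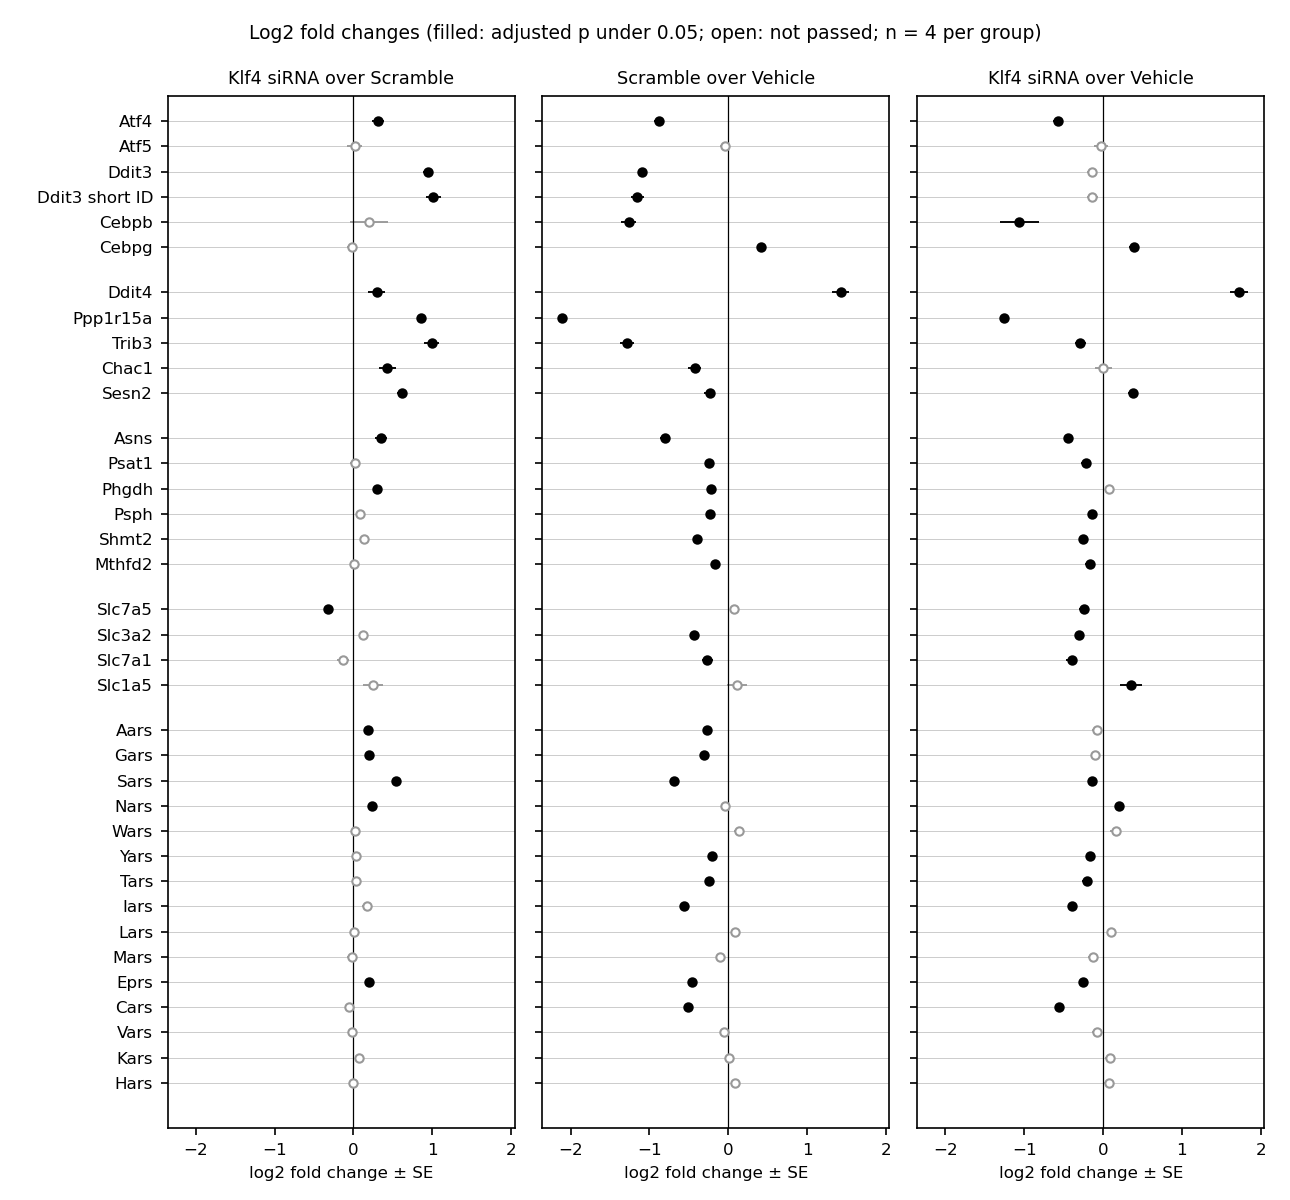
Log2 fold change of each of the 36 genes (horizontal axis, bars are the SE, 4 samples per group) in the 3 comparisons, grouped by role from transcription factors at the top to synthetases at the bottom. Filled points passed the adjusted p threshold: 15 lie right of 0 and 1 left in Klf4 siRNA over Scramble, 2 right and 24 left in Scramble over Vehicle, and 5 right and 18 left in Klf4 siRNA over Vehicle.

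By mean level, Klf4 siRNA was the highest group for 8 of the 36 genes, Scramble for 3 and Vehicle for 25. Klf4 siRNA was the lowest group for 6, Scramble for 23 and Vehicle for 7. The order with Vehicle on top, Klf4 siRNA between and Scramble lowest held for 20 genes. Both neighbouring steps passed the threshold for only 6 of them: Asns, Atf4, Eprs, Ppp1r15a, Sars and Trib3. For the others at least 1 step did not pass, and the share of all genes in each order is not given here. As CPM, counts relative to library size and scaled by TMM over the 12 samples, the 36 genes summed to 6187 ± 257 CPM in Klf4 siRNA, 5631 ± 115 CPM in Scramble and 7068 ± 243 CPM in Vehicle (SD, n = 4 each). The summed effectors came to 282 ± 13.4 CPM in Klf4 siRNA, 166 ± 11.7 CPM in Scramble and 402 ± 13.8 CPM in Vehicle (SD, n = 4 each). The summed transporters were instead lowest in the Klf4 siRNA group, at 870.0 ± 41.7 CPM in Klf4 siRNA, 958 ± 44.9 CPM in Scramble and 1058 ± 45.6 CPM in Vehicle (SD, n = 4 each). The transporter sum is carried by Slc7a5 and Slc3a2, whose levels were far above those of Slc7a1 and Slc1a5.

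**Figure D2:**
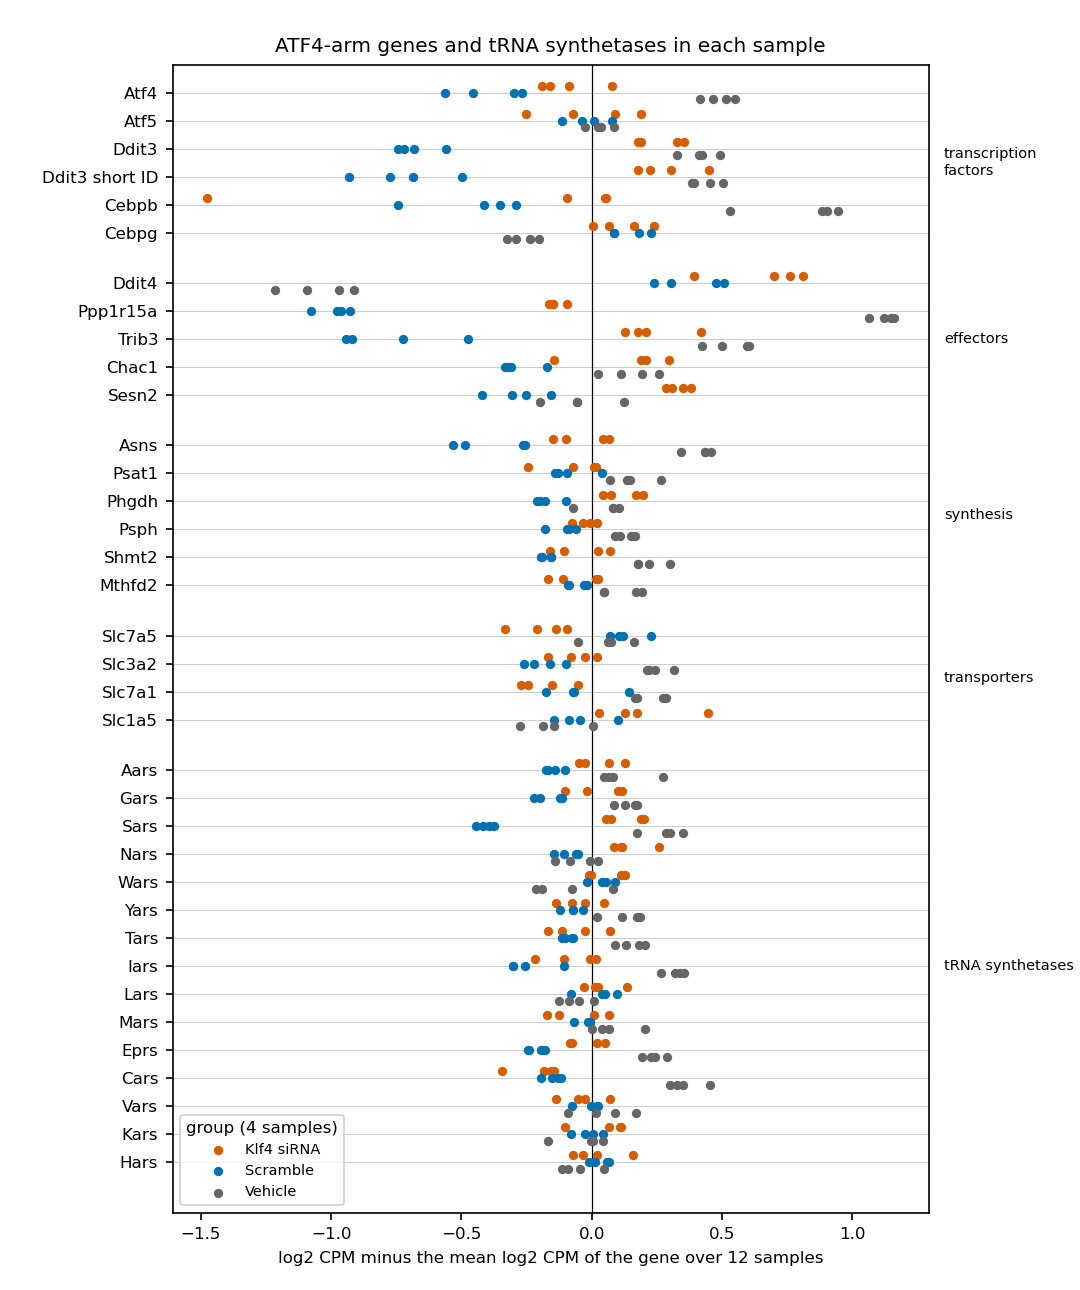
Level of each gene in each of the 12 samples, as log2 CPM minus that gene's mean over all samples (horizontal axis), with colours for Klf4 siRNA, Scramble and Vehicle (4 points each per gene). Ppp1r15a, Trib3 and both Ddit3 IDs show the 4 Scramble samples to the left of all others, Ddit4 shows the 4 Vehicle samples to the left, and 1 Klf4 siRNA sample of Cebpb lies apart at the left.

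Among the transcription factors, Atf4 (mm10 chromosome 15, 80255184 to 80257541, plus strand) encodes the factor at the centre of the arm. It had 122, 137, 114 and 116 CPM in Klf4 siRNA samples 1 to 4, 108, 94.6, 87.9 and 106 CPM in Scramble samples 1 to 4 and 190.0, 186, 173 and 179 CPM in Vehicle samples 1 to 4. The groups did not overlap, with Vehicle on top and Scramble lowest. It rose 1.24-fold with the Klf4 siRNA over Scramble (log2 fold change 0.31, edgeR SE 0.075, adjusted p = 0.0064). It fell to 54.5% of Vehicle in Scramble (log2 fold change -0.88, edgeR SE 0.063, adjusted p = 1.1e-07) and to 67.5% of Vehicle in Klf4 siRNA (log2 fold change -0.57, edgeR SE 0.063, adjusted p = 1.2e-05).

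Ddit3 encodes CHOP, a C/EBP family factor that is induced by ATF4 and linked to cell death under lasting stress. Its longer ID had 113, 111, 99.9 and 101 CPM in Klf4 siRNA samples 1 to 4, 53.7, 52.7, 59.9 and 54.99 CPM in Scramble samples 1 to 4 and 119, 124, 118 and 111 CPM in Vehicle samples 1 to 4. All Scramble samples lay below all others, and the ranges of Klf4 siRNA and Vehicle overlapped. It rose 1.92-fold in Klf4 siRNA over Scramble (log2 fold change 0.94, edgeR SE 0.058, adjusted p = 1.2e-07) and fell to 46.97% of Vehicle in Scramble (log2 fold change -1.09, edgeR SE 0.055, adjusted p = 3.5e-09). Between Klf4 siRNA and Vehicle it did not pass, at -0.14 (edgeR SE 0.058, adjusted p = 0.0611), with a 95% interval of -0.26 to -0.029. The shorter ID covers 105 bases that lie wholly within exons of the longer one, so its reads cannot be told from those of the longer ID by position. It had 29.1, 24.8, 24.1 and 26.3 CPM in Klf4 siRNA samples 1 to 4, 13.2, 11.2, 15.1 and 12.4 CPM in Scramble samples 1 to 4 and 29.1, 30.1, 27.9 and 27.8 CPM in Vehicle samples 1 to 4. Its pattern across groups was that of the longer ID, with log2 fold changes of 1.01 (SE 0.10, edgeR adjusted p = 5.0e-06) in Klf4 siRNA over Scramble, -1.15 (edgeR SE 0.085, adjusted p = 1.3e-07) in Scramble over Vehicle and -0.13 (edgeR SE 0.073, adjusted p = 0.156) in Klf4 siRNA over Vehicle, where it did not pass. In Klf4 siRNA over Vehicle, both IDs passed without Klf4 siRNA 1 alone, at -0.19 for the longer (edgeR adjusted p = 0.0178) and -0.21 for the shorter (edgeR adjusted p = 0.0283). The longer ID also passed there with RLE size factors (-0.16, edgeR adjusted p = 0.043), with DESeq2 (-0.16, adjusted p = 0.0302) and with all 12 samples in the fit (-0.17, edgeR adjusted p = 0.0216).

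Cebpb encodes C/EBP beta, a dimer partner of ATF4. It had 47.02, 136, 136 and 123 CPM in Klf4 siRNA samples 1 to 4, 103, 98.2, 107 and 78.1 CPM in Scramble samples 1 to 4 and 189, 242, 244 and 252 CPM in Vehicle samples 1 to 4. Klf4 siRNA 1 lay far below the other samples of its group, which stood above all Scramble samples, and every Vehicle sample lay above every other sample. Over all 4 samples of each group it did not pass in Klf4 siRNA over Scramble (log2 fold change 0.20, edgeR SE 0.24, adjusted p = 0.562), but without Klf4 siRNA 1 alone its log2 fold change was 0.45 (edgeR adjusted p = 8.2e-04). It fell to 41.6% of Vehicle in Scramble (log2 fold change -1.26, edgeR SE 0.10, adjusted p = 2.6e-07) and to 47.9% in Klf4 siRNA (log2 fold change -1.06, edgeR SE 0.25, adjusted p = 0.00351). Of its exon bases, 20.7% are shared with Tmem189 on the opposite strand. If the libraries do not mark strand, which was not checked, reads from these bases cannot be assigned to either gene.

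Cebpg encodes C/EBP gamma, another dimer partner of ATF4, and was lowest in Vehicle. It averaged 86.1 ± 6.11 CPM in Klf4 siRNA, 87.6 ± 4.29 CPM in Scramble and 65.97 ± 2.51 CPM in Vehicle (SD, n = 4 each). It rose in Scramble over Vehicle, at 0.41 (edgeR SE 0.051, adjusted p = 1.8e-05), and in Klf4 siRNA over Vehicle, at 0.39 (edgeR SE 0.060, adjusted p = 1.8e-04). Its log2 fold change in Klf4 siRNA over Scramble was -0.022 (edgeR SE 0.058, adjusted p = 0.801) with a 95% interval of -0.14 to 0.092. Atf5, which encodes a relative of ATF4 that is likewise controlled at translation, passed in none of the 3 comparisons and averaged 24.2 ± 3.17 CPM in Klf4 siRNA, 23.98 ± 1.35 CPM in Scramble and 24.7 ± 0.781 CPM in Vehicle (SD, n = 4 each).

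All 5 effectors rose in Klf4 siRNA over Scramble, against 18.5% of all genes tested. Ppp1r15a encodes GADD34, which brings a phosphatase to eIF2alpha and so ends the response. It had 90.3, 94.8, 91.3 and 91.4 CPM in Klf4 siRNA samples 1 to 4, 51.9, 48, 53.2 and 51.4 CPM in Scramble samples 1 to 4 and 226, 224, 211 and 219.9 CPM in Vehicle samples 1 to 4. The groups were well separated, with about the same level in the 4 samples of each. Its log2 fold change was 0.85 in Klf4 siRNA over Scramble (SE 0.048, edgeR adjusted p = 6.5e-08), -2.11 (edgeR SE 0.048, adjusted p = 1.9e-12) in Scramble over Vehicle and -1.25 (edgeR SE 0.048, adjusted p = 6.9e-10) in Klf4 siRNA over Vehicle. The Scramble level came to 23.2% of Vehicle, the lowest share of any of the 36 genes in that comparison.

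Trib3 encodes a pseudokinase that binds ATF4 and dampens it. It had 83.1, 96.2, 78.5 and 81.2 CPM in Klf4 siRNA samples 1 to 4, 51.7, 37.4, 38.01 and 43.5 CPM in Scramble samples 1 to 4 and 109, 109, 102 and 96.4 CPM in Vehicle samples 1 to 4. Scramble was lowest without overlap, and its sample 1 was the highest of that group. Trib3 rose 1.99-fold in Klf4 siRNA over Scramble (log2 fold change 0.99, edgeR SE 0.10, adjusted p = 7.0e-06). It fell to 41.2% of Vehicle in Scramble (log2 fold change -1.28, edgeR SE 0.090, adjusted p = 8.7e-08) and to 82.05% in Klf4 siRNA (log2 fold change -0.29, edgeR SE 0.069, adjusted p = 0.00467). Its promoter window holds the element with the free base T that is printed above.

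Ddit4 encodes REDD1, an inhibitor of the growth kinase complex mTORC1, and was the only member that rose in all 3 comparisons. It had 12.3, 15.8, 15.1 and 16.4 CPM in Klf4 siRNA samples 1 to 4, 12.98, 11, 13.3 and 11.5 CPM in Scramble samples 1 to 4 and 4.96, 4.76, 4.02 and 4.37 CPM in Vehicle samples 1 to 4. Every Vehicle sample lay below every other sample, while the Klf4 siRNA and Scramble ranges overlapped through Klf4 siRNA 1. It rose 2.69-fold in Scramble over Vehicle (log2 fold change 1.43, edgeR SE 0.10, adjusted p = 1.3e-07) and 3.31-fold in Klf4 siRNA over Vehicle (log2 fold change 1.73, edgeR SE 0.12, adjusted p = 1.7e-07). Its rise in Klf4 siRNA over Scramble was smaller (log2 fold change 0.30, edgeR SE 0.10, adjusted p = 0.0431) and did not pass without Klf4 siRNA 2, Klf4 siRNA 3, Klf4 siRNA 4, Scramble 1, Scramble 2 or Scramble 4, each left out alone (log2 fold changes 0.25 to 0.33, edgeR adjusted p = 0.051 to 0.12).

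Sesn2 encodes sestrin 2, a leucine sensor that also restrains mTORC1. It averaged 78.3 ± 2.33 CPM in Klf4 siRNA, 51.2 ± 3.87 CPM in Scramble and 60.4 ± 5.59 CPM in Vehicle (SD, n = 4 each), and its highest group was Klf4 siRNA. It rose over Scramble, at 0.62 (edgeR SE 0.058, adjusted p = 4.9e-06), and over Vehicle, at 0.38 (edgeR SE 0.068, adjusted p = 5.4e-04). Its fall in Scramble over Vehicle, at -0.24 (edgeR SE 0.073, adjusted p = 0.0142), did not pass without Scramble 3 alone (-0.18, edgeR adjusted p = 0.0582). Chac1 encodes an enzyme that breaks down glutathione, and was read at a low level of 12.2 ± 1.55 CPM in Klf4 siRNA, 9.09 ± 0.477 CPM in Scramble and 12.2 ± 0.851 CPM in Vehicle (SD, n = 4 each). It rose in Klf4 siRNA over Scramble, at 0.43 (edgeR SE 0.10, adjusted p = 0.00588), and fell in Scramble over Vehicle, at -0.43 (edgeR SE 0.085, adjusted p = 8.3e-04). Between Klf4 siRNA and Vehicle its log2 fold change was 0.0061 (edgeR SE 0.11, adjusted p = 0.968) with a 95% interval of -0.20 to 0.21, and it did not pass.

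**Figure D3:**
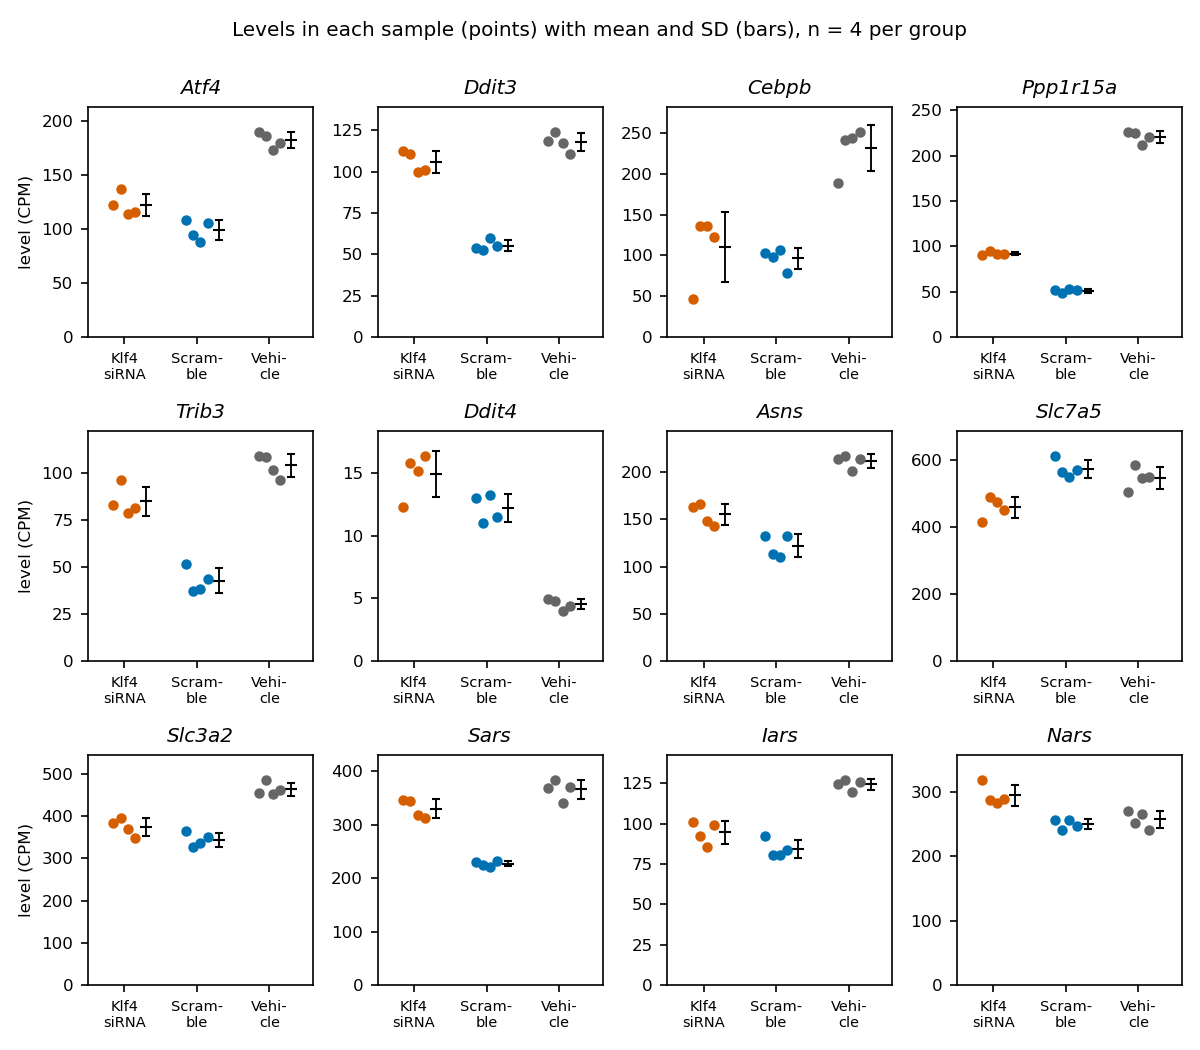
Level in CPM (vertical axis, from 0) of 12 of the genes in each sample (points), with the mean and SD of each group (bars, n = 4), for Klf4 siRNA, Scramble and Vehicle from left to right. Scramble is the lowest group without overlap for Atf4, Ddit3, Ppp1r15a, Trib3, Asns and Sars, Vehicle is the lowest for Ddit4, and Klf4 siRNA is the lowest for Slc7a5.

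Of the 6 enzymes of amino acid and one-carbon synthesis, 2 rose in Klf4 siRNA over Scramble, all 6 fell in Scramble over Vehicle and 5 fell in Klf4 siRNA over Vehicle. Over all genes tested, 18.5% rose in the first of these comparisons, 26.6% fell in the second and 21.3% fell in the third. Asns makes asparagine from aspartate with glutamine as the nitrogen donor. It had 163, 166, 148 and 143 CPM in Klf4 siRNA samples 1 to 4, 133, 113, 109.7 and 132 CPM in Scramble samples 1 to 4 and 214, 217, 201 and 214 CPM in Vehicle samples 1 to 4. The groups did not overlap, with Vehicle on top and Scramble lowest. It rose 1.28-fold in Klf4 siRNA over Scramble (log2 fold change 0.35, edgeR SE 0.072, adjusted p = 0.00221), and fell to 57.6% of Vehicle in Scramble (log2 fold change -0.80, edgeR SE 0.063, adjusted p = 2.8e-07) and to 73.7% in Klf4 siRNA (log2 fold change -0.44, edgeR SE 0.056, adjusted p = 4.1e-05).

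Phgdh, Psat1 and Psph encode the 3 steps of serine synthesis from a glycolytic intermediate. Phgdh, the first step, had 305, 299, 280.3 and 274 CPM in Klf4 siRNA samples 1 to 4, 230.2, 235, 232 and 249 CPM in Scramble samples 1 to 4 and 281, 286, 253 and 282 CPM in Vehicle samples 1 to 4. Scramble was lowest without overlap, and the ranges of Klf4 siRNA and Vehicle overlapped. Phgdh rose in Klf4 siRNA over Scramble (log2 fold change 0.30, edgeR SE 0.045, adjusted p = 2.4e-04) and fell in Scramble over Vehicle (log2 fold change -0.22, edgeR SE 0.047, adjusted p = 0.00154). Between Klf4 siRNA and Vehicle it did not pass, at 0.080 (edgeR SE 0.053, adjusted p = 0.238). Neither of the later steps passed in Klf4 siRNA over Scramble, with log2 fold changes of 0.016 for Psat1 (edgeR adjusted p = 0.868) and 0.086 for Psph (edgeR adjusted p = 0.146). In Scramble over Vehicle they fell by similar amounts, at -0.24 for Psat1 and -0.23 for Psph (edgeR adjusted p = 0.0024 and 4.1e-04). In Klf4 siRNA over Vehicle, the fall of Psat1, at -0.22 (edgeR adjusted p = 0.016), did not pass without Vehicle 4 alone (-0.18, edgeR adjusted p = 0.0598). That of Psph, at -0.15 (edgeR adjusted p = 0.0219), did not pass without Klf4 siRNA 4, Vehicle 1 or Vehicle 3, each left out alone (log2 fold changes -0.14 to -0.13, edgeR adjusted p = 0.0509 to 0.0568), nor under upper-quartile scaling (-0.12, edgeR adjusted p = 0.0514).

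Shmt2 and Mthfd2 encode mitochondrial enzymes that take one-carbon units from serine. Shmt2 had 179, 185, 163 and 157 CPM in Klf4 siRNA samples 1 to 4, 158, 154, 158 and 153 CPM in Scramble samples 1 to 4 and 199, 216, 205 and 199 CPM in Vehicle samples 1 to 4. Vehicle was on top without overlap, and Klf4 siRNA and Scramble overlapped slightly at these levels, scaled over the 12 samples. Scaled over the 8 samples of that comparison alone, all Klf4 siRNA samples lay above all Scramble samples. Shmt2 fell in Scramble over Vehicle (log2 fold change -0.39, edgeR SE 0.042, adjusted p = 4.0e-06) and in Klf4 siRNA over Vehicle (log2 fold change -0.25, edgeR SE 0.058, adjusted p = 0.0035). This gene lay just outside the threshold in Klf4 siRNA over Scramble (log2 fold change 0.14, edgeR SE 0.053, adjusted p = 0.0555), and it passed without Klf4 siRNA 3 or Klf4 siRNA 4, each left out alone (log2 fold changes 0.16 to 0.18, edgeR adjusted p = 0.0164 to 0.0492). It also passed with DESeq2 (0.14, adjusted p = 0.0444), without the filter on low counts (0.14, edgeR adjusted p = 0.0421) and with all 12 samples in the fit (0.14, edgeR adjusted p = 0.0408). Mthfd2 averaged 123 ± 8.002 CPM in Klf4 siRNA, 123 ± 3.25 CPM in Scramble and 138 ± 7.47 CPM in Vehicle (SD, n = 4 each), and did not pass in Klf4 siRNA over Scramble (log2 fold change 0.0031, edgeR SE 0.052, adjusted p = 0.971). Its fall in Scramble over Vehicle, at -0.17 (edgeR adjusted p = 0.00881), did not pass without Scramble 2 alone (-0.15, edgeR adjusted p = 0.0512). Its fall in Klf4 siRNA over Vehicle, at -0.16 (edgeR adjusted p = 0.0391), did not pass without Klf4 siRNA 3, Klf4 siRNA 4, Vehicle 1 or Vehicle 3, each left out alone (log2 fold changes -0.15 to -0.14, edgeR adjusted p = 0.0965 to 0.119), nor under upper-quartile scaling (-0.14, edgeR adjusted p = 0.0772).

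The 4 transporters did not share a pattern. Slc7a5 encodes LAT1, the exchanger that brings leucine and other large neutral amino acids into the cell. It had 417, 491, 477 and 453 CPM in Klf4 siRNA samples 1 to 4, 614, 565, 551 and 569.8 CPM in Scramble samples 1 to 4 and 506, 587, 547 and 552 CPM in Vehicle samples 1 to 4. All Klf4 siRNA samples lay below all other samples, while Scramble and Vehicle overlapped. It fell to 80.2% of Scramble (log2 fold change -0.32, edgeR SE 0.053, adjusted p = 5.1e-04) and to 84.3% of Vehicle (log2 fold change -0.25, edgeR SE 0.061, adjusted p = 0.00505) with the Klf4 siRNA. Between Scramble and Vehicle it did not pass, at 0.069 (edgeR SE 0.049, adjusted p = 0.254), with a 95% interval of -0.028 to 0.17.

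Slc3a2 encodes the heavy chain that LAT1 needs to reach the plasma membrane. It had 384, 396, 370.3 and 348 CPM in Klf4 siRNA samples 1 to 4, 365, 327, 336 and 350.1 CPM in Scramble samples 1 to 4 and 456, 487, 453 and 463 CPM in Vehicle samples 1 to 4. Vehicle lay above all other samples, and Klf4 siRNA and Scramble overlapped. It fell in Scramble over Vehicle (log2 fold change -0.43, edgeR SE 0.044, adjusted p = 2.5e-06) and in Klf4 siRNA over Vehicle (log2 fold change -0.30, edgeR SE 0.048, adjusted p = 2.4e-04). Between Klf4 siRNA and Scramble it did not pass (log2 fold change 0.13, edgeR SE 0.048, adjusted p = 0.059), and it passed without Klf4 siRNA 4 or Scramble 1, each left out alone (log2 fold change 0.16 in each, edgeR adjusted p = 0.0187 to 0.0276). It also passed without the filter on low counts (0.13, edgeR adjusted p = 0.0439) and with all 12 samples in the fit (0.12, edgeR adjusted p = 0.0437). The paired chains of this exchanger thus had log2 fold changes of -0.32 for Slc7a5 and 0.13 for Slc3a2 in that comparison; the difference between the genes was not tested.

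Slc7a1 encodes CAT1, a carrier of arginine and lysine. It had 29.7, 32.2, 30.2 and 34.5 CPM in Klf4 siRNA samples 1 to 4, 39.5, 34.01, 34.2 and 31.7 CPM in Scramble samples 1 to 4 and 43.6, 40.1, 40.4 and 43.3 CPM in Vehicle samples 1 to 4. Vehicle lay above all other samples, and Klf4 siRNA overlapped with Scramble. It fell in Scramble over Vehicle (log2 fold change -0.26, edgeR SE 0.070, adjusted p = 0.00597) and in Klf4 siRNA over Vehicle (log2 fold change -0.40, edgeR SE 0.068, adjusted p = 4.0e-04), and did not pass in Klf4 siRNA over Scramble (log2 fold change -0.14, edgeR SE 0.076, adjusted p = 0.184). Slc1a5 encodes ASCT2, a carrier of glutamine and other neutral amino acids, and had the lowest level of the set. It had 4.34, 4.21, 5.24 and 3.93 CPM in Klf4 siRNA samples 1 to 4, 3.48, 3.63, 3.74 and 4.13 CPM in Scramble samples 1 to 4 and 3.38, 3.87, 3.48 and 3.18 CPM in Vehicle samples 1 to 4. All 4 Klf4 siRNA samples lay above all Vehicle samples by a narrow margin. It rose in Klf4 siRNA over Vehicle (log2 fold change 0.36, edgeR SE 0.14, adjusted p = 0.0481), a call that was lost without Klf4 siRNA 1, Klf4 siRNA 2, Klf4 siRNA 3, Vehicle 1, Vehicle 3 or Vehicle 4, each left out alone (log2 fold changes 0.26 to 0.38, edgeR adjusted p = 0.0629 to 0.167). It was also lost with RLE size factors (0.34, edgeR adjusted p = 0.0576) and with DESeq2 (0.34, adjusted p = 0.0707). Its other comparisons did not pass, at 0.25 (edgeR adjusted p = 0.15) in Klf4 siRNA over Scramble and 0.11 (edgeR adjusted p = 0.499) in Scramble over Vehicle.

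The 15 cytosolic aminoacyl-tRNA synthetases, each of which joins an amino acid to its tRNA, did not move as one group. In Klf4 siRNA over Scramble 5 rose, 0 fell and 10 did not pass, with a median log2 fold change of 0.038. In Scramble over Vehicle 0 rose, 8 fell and 7 did not pass, with a median of -0.20. In Klf4 siRNA over Vehicle 1 rose, 6 fell and 8 did not pass, with a median of -0.10. Calls in either direction covered 33.3%, 53.3% and 46.7% of the synthetases in this order, near the 36%, 53.9% and 45.4% of all genes. By direction, rises covered 33.3%, 0% and 6.67% of the synthetases, against 18.5%, 27.3% and 24.1% of all genes. Falls covered 0%, 53.3% and 40%, against 17.5%, 26.6% and 21.3% of all genes. The medians over all genes tested were -0.00018, 0.0052 and 0.019 in the same order. Summed over the 15, the level was 3534 ± 167 CPM in Klf4 siRNA, 3217 ± 35.2 CPM in Scramble and 3800.3 ± 163 CPM in Vehicle (SD, n = 4 each).

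Sars, the synthetase for serine, had the largest change among them in both comparisons that involve Scramble. It had 346, 344, 317 and 313 CPM in Klf4 siRNA samples 1 to 4, 229, 225, 221 and 232 CPM in Scramble samples 1 to 4 and 368, 384, 340.1 and 371 CPM in Vehicle samples 1 to 4. Every Scramble sample lay below every other sample, and the Klf4 siRNA and Vehicle ranges overlapped slightly. Sars rose 1.46-fold in Klf4 siRNA over Scramble (log2 fold change 0.54, edgeR SE 0.043, adjusted p = 1.0e-06) and fell to 62.1% of Vehicle in Scramble (log2 fold change -0.69, edgeR SE 0.044, adjusted p = 3.5e-08). Its difference between Klf4 siRNA and Vehicle was small (log2 fold change -0.14, edgeR SE 0.051, adjusted p = 0.0397), and it did not pass without Klf4 siRNA 3, Klf4 siRNA 4, Vehicle 1, Vehicle 2 or Vehicle 4, each left out alone (log2 fold changes -0.14 to -0.12, edgeR adjusted p = 0.0692 to 0.11), nor under upper-quartile scaling (-0.12, edgeR adjusted p = 0.0826). The authors' deposited table gave an FDR of 0.0722 for it there.

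Nars, the synthetase for asparagine, was highest in the Klf4 siRNA group. It had 319, 288, 282 and 288 CPM in Klf4 siRNA samples 1 to 4, 256, 241, 257 and 247 CPM in Scramble samples 1 to 4 and 270.3, 251, 265 and 241 CPM in Vehicle samples 1 to 4. All Klf4 siRNA samples lay above all other samples, and Scramble and Vehicle overlapped. It rose in Klf4 siRNA over Scramble (log2 fold change 0.24, edgeR SE 0.045, adjusted p = 0.00119) and over Vehicle (log2 fold change 0.20, edgeR SE 0.053, adjusted p = 0.00682), and did not pass in Scramble over Vehicle (log2 fold change -0.039, edgeR SE 0.045, adjusted p = 0.491). Without Klf4 siRNA samples 1 and 4 the rise over Vehicle did not pass (log2 fold change 0.15, edgeR adjusted p = 0.0756).

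Iars, the synthetase for isoleucine, had 101, 92.6, 85.6 and 99.1 CPM in Klf4 siRNA samples 1 to 4, 92.5, 80.8, 80.8 and 83.4 CPM in Scramble samples 1 to 4 and 124, 127, 119.7 and 126 CPM in Vehicle samples 1 to 4. Vehicle lay above all other samples without overlap, and Klf4 siRNA overlapped with Scramble. Iars fell in Scramble over Vehicle (log2 fold change -0.56, edgeR SE 0.052, adjusted p = 1.2e-06) and in Klf4 siRNA over Vehicle (log2 fold change -0.39, edgeR SE 0.059, adjusted p = 1.6e-04). Its value in Klf4 siRNA over Scramble missed the threshold narrowly (log2 fold change 0.17, edgeR SE 0.063, adjusted p = 0.0544), and it passed without Klf4 siRNA 3 or Scramble 1, each left out alone (log2 fold changes 0.21 to 0.22, edgeR adjusted p = 0.0186 to 0.022). It also passed with DESeq2 (0.16, adjusted p = 0.0409), without the filter on low counts (0.17, edgeR adjusted p = 0.0466) and with all 12 samples in the fit (0.16, edgeR adjusted p = 0.0387). Cars, the synthetase for cysteine, had 181, 182, 178 and 159 CPM in Klf4 siRNA samples 1 to 4, 186, 176, 181 and 184 CPM in Scramble samples 1 to 4 and 257, 276, 253 and 248 CPM in Vehicle samples 1 to 4. Again Vehicle lay above all others, while the ranges of both transfected groups overlapped. Cars fell to 70.4% of Vehicle in Scramble (log2 fold change -0.51, edgeR SE 0.044, adjusted p = 5.7e-07) and to 67.98% in Klf4 siRNA (log2 fold change -0.56, edgeR SE 0.056, adjusted p = 5.3e-06). Between Klf4 siRNA and Scramble its log2 fold change was -0.053 (edgeR SE 0.049, adjusted p = 0.435), with a 95% interval of -0.15 to 0.044.

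Eprs, Gars and Aars rose together with Sars and Nars in Klf4 siRNA over Scramble. Eprs joins both glutamate and proline to their tRNAs, and its log2 fold changes were 0.20 (edgeR adjusted p = 0.00263) in Klf4 siRNA over Scramble, -0.45 (edgeR adjusted p = 4.9e-07) in Scramble over Vehicle and -0.25 (edgeR adjusted p = 6.4e-04) in Klf4 siRNA over Vehicle. Gars, the synthetase for glycine, gave 0.19 (edgeR adjusted p = 0.0106), -0.30 (edgeR adjusted p = 3.8e-05) and -0.10 (edgeR adjusted p = 0.124) in the same order. Aars, the synthetase for alanine, gave 0.18 (edgeR adjusted p = 0.00504), -0.27 (edgeR adjusted p = 4.6e-04) and -0.081 (edgeR adjusted p = 0.268). Eprs thus fell against Vehicle in both transfected groups, and Gars and Aars fell in Scramble over Vehicle. Gars also passed in Klf4 siRNA over Vehicle without Klf4 siRNA 1 alone (-0.15, edgeR adjusted p = 0.0394) and with all 12 samples in the fit (-0.13, edgeR adjusted p = 0.0314).

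Tars and Yars, for threonine and tyrosine, did not pass in Klf4 siRNA over Scramble but fell against Vehicle. Tars fell in Scramble, at -0.24 (edgeR adjusted p = 4.3e-04), and in Klf4 siRNA, at -0.20 (edgeR adjusted p = 0.0143). Yars fell in Scramble, at -0.20 (edgeR adjusted p = 0.00291), and in Klf4 siRNA, at -0.16 (edgeR adjusted p = 0.0338), where the call was lost without Klf4 siRNA 3, Klf4 siRNA 4, Vehicle 2 or Vehicle 4, each left out alone (log2 fold changes -0.16 to -0.14, edgeR adjusted p = 0.0761 to 0.0953), and also under upper-quartile scaling (-0.14, edgeR adjusted p = 0.0602). Without Klf4 siRNA samples 1 and 4, neither Tars (log2 fold change -0.17, edgeR adjusted p = 0.07) nor Yars (-0.14, edgeR adjusted p = 0.112) passed in Klf4 siRNA over Vehicle. Gars, Tars, Yars and Iars are the synthetases with the printed element, and Sars, whose window was searched, holds none.

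Wars, Lars, Mars, Vars, Kars and Hars, for tryptophan, leucine, methionine, valine, lysine and histidine, passed in none of the comparisons as fitted over their 8 samples with TMM scaling. Their log2 fold changes ran from -0.024 to 0.068 in Klf4 siRNA over Scramble, -0.10 to 0.14 in Scramble over Vehicle and -0.13 to 0.16 in Klf4 siRNA over Vehicle. Some passed with 1 sample left out or under another setting. In Scramble over Vehicle, Wars passed without Scramble 1 or Vehicle 2, each left out alone (log2 fold changes 0.17 to 0.20, edgeR adjusted p = 0.00443 to 0.0463), Lars without Scramble 1 alone (0.14, edgeR adjusted p = 0.0178), Hars without Vehicle 2 alone (0.12, edgeR adjusted p = 0.041) and Mars without Vehicle 1 alone (-0.13, edgeR adjusted p = 0.0371). For Klf4 siRNA over Vehicle, Wars passed without Vehicle 2 alone (0.22, edgeR adjusted p = 0.00985) and Mars without Klf4 siRNA 1 alone (-0.19, edgeR adjusted p = 0.0242). With all samples in, Wars passed in Scramble over Vehicle under upper-quartile scaling (0.16, edgeR adjusted p = 0.0338) and Lars under upper-quartile scaling (0.12, edgeR adjusted p = 0.0427). For Klf4 siRNA over Vehicle, Wars passed under upper-quartile scaling (0.18, edgeR adjusted p = 0.0445) and Mars with all 12 samples in the fit (-0.15, edgeR adjusted p = 0.0289). In these fits Wars, Lars and Hars were higher in the transfected group and Mars lower. Exon bases of Mars and Ddit3 meet on opposite strands over 68 bases, and those of Hars and Hars2 over 195.

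Per gene length, as the authors' RPKM, the set spanned a wide range. In Scramble, leaving aside the short Ddit3 ID, whose RPKM rests on 105 bases, Slc7a5 was the highest, with 124 ± 8.77 RPKM in Klf4 siRNA, 155 ± 7.36 RPKM in Scramble and 148 ± 8.95 RPKM in Vehicle (SD, n = 4 each). Slc3a2 followed, with 106 ± 5.83 RPKM in Klf4 siRNA, 97.6 ± 4.72 RPKM in Scramble and 132 ± 4.36 RPKM in Vehicle (SD, n = 4 each). Slc1a5 was the lowest in every group, with 1.06 ± 0.137 RPKM in Klf4 siRNA, 0.898 ± 0.0672 RPKM in Scramble and 0.834 ± 0.0685 RPKM in Vehicle (SD, n = 4 each). The chains of the large neutral amino acid exchanger thus stood at the top in Scramble, and the ASCT2 gene at the bottom. Cebpb was the highest in Vehicle, again without the short ID, with 73.3 ± 28.3 RPKM in Klf4 siRNA, 64.1 ± 8.49 RPKM in Scramble and 154 ± 19.1 RPKM in Vehicle (SD, n = 4 each). Counted from the highest, Ppp1r15a took rank 23 of the 36 genes in Klf4 siRNA, rank 26 in Scramble and rank 10 in Vehicle. Within the synthetases, Gars and Aars were the highest in all 3 groups by RPKM, and Eprs, Tars and Iars were the lowest. These ranks depend on the counted length, which was 18102 bases for Eprs, the longest of the set. By mean CPM, which takes no account of length, Eprs stood above Mars, Lars, Cars, Kars and Hars in every group. Only Aars stood above Eprs in every group by that measure. Tars and Iars were among the lowest synthetases by CPM too.

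The spread between samples of a group was small for most members. The median coefficient of variation of the CPM was 6.98% over the Klf4 siRNA samples, 4.56% over Scramble and 5% over Vehicle. It was highest for Cebpb in Klf4 siRNA (38.6%), for Trib3 in Scramble (15.5%) and for Cebpb in Vehicle (12.4%). Scaled over the 8 samples of a comparison alone, 15 members had all Klf4 siRNA samples above all Scramble samples (18% of all genes) and 1 had all below (16.7%). Scramble lay wholly above Vehicle for 2 members (24.6% of all genes) and wholly below for 24 (23.7%). Klf4 siRNA lay wholly above Vehicle for 5 members (21.6% of all genes) and wholly below for 15 (19.6%). The groups thus stayed apart for 44.4%, 72.2% and 55.6% of members in the same order, against 34.7%, 48.3% and 41.2% of all genes. Calls of at least 2-fold numbered 1 of 36 members in Klf4 siRNA over Scramble (2.69% of all genes), 6 in Scramble over Vehicle (5.08%) and 3 in Klf4 siRNA over Vehicle (5.27%).

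Genes around the set were taken from 6 further lists. Over all genes tested, 18.5% rose and 17.5% fell in Klf4 siRNA over Scramble, 27.3% and 26.6% in Scramble over Vehicle, and 24.1% and 21.3% in Klf4 siRNA over Vehicle, and calls in either direction made up 36%, 53.9% and 45.4%. Of the eIF2 kinases and the genes of the eIF2 cycle, 6 rose and 1 fell of 12 tested in Klf4 siRNA over Scramble, 2 rose and 6 fell of 12 in Scramble over Vehicle, and 3 rose and 4 fell of 12 in Klf4 siRNA over Vehicle. Calls made up 58.3%, 66.7% and 58.3% of this list. Eif2ak2, the gene of PKR, rose in each comparison, at 0.28 (edgeR SE 0.087, adjusted p = 0.0226) in Klf4 siRNA over Scramble, 0.49 (edgeR SE 0.074, adjusted p = 8.8e-05) in Scramble over Vehicle and 0.78 (edgeR SE 0.10, adjusted p = 2.9e-05) in Klf4 siRNA over Vehicle. Eif2ak3, the gene of PERK, fell in Scramble over Vehicle, at -0.64 (edgeR SE 0.051, adjusted p = 2.6e-07), and in Klf4 siRNA over Vehicle, at -0.68 (edgeR SE 0.057, adjusted p = 1.0e-06). Eif2b5, the catalytic subunit of the exchange factor eIF2B, likewise rose in each comparison. Its log2 fold changes were 0.29 (edgeR adjusted p = 4.1e-04) in Klf4 siRNA over Scramble, 0.29 (edgeR adjusted p = 3.1e-04) in Scramble over Vehicle and 0.58 (edgeR adjusted p = 7.9e-06) in Klf4 siRNA over Vehicle. PKR is activated by double-stranded RNA and PERK by stress in the endoplasmic reticulum. The median log2 fold changes of this list were 0.091, -0.10 and 0.050 in the same order of comparisons.

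Of further ATF4 target genes, 7 rose and 0 fell of 17 tested in Klf4 siRNA over Scramble, 2 rose and 11 fell of 16 in Scramble over Vehicle, and 4 rose and 7 fell of 17 in Klf4 siRNA over Vehicle. Calls made up 41.2%, 81.2% and 64.7% of these targets. Their medians were 0.24, -0.34 and -0.19. Atf3, a stress factor induced by ATF4, had 74.7, 80.3, 59.9 and 64.5 CPM in Klf4 siRNA samples 1 to 4, 35.4, 33.4, 37.6 and 34.97 CPM in Scramble samples 1 to 4 and 196, 194, 168 and 187 CPM in Vehicle samples 1 to 4. It showed the order of Ppp1r15a, with Vehicle highest and Scramble lowest and no overlap. Its log2 fold change was 0.99 (edgeR SE 0.084, adjusted p = 1.9e-06) in Klf4 siRNA over Scramble, -2.40 (edgeR SE 0.060, adjusted p = 4.1e-12) in Scramble over Vehicle and -1.41 (edgeR SE 0.086, adjusted p = 5.9e-08) in Klf4 siRNA over Vehicle. Slc7a11, the cystine carrier, gave 1.08 (edgeR SE 0.19, adjusted p = 7.8e-04) in Klf4 siRNA over Scramble and -1.35 (edgeR SE 0.18, adjusted p = 4.0e-05) in Scramble over Vehicle, at levels of 3.72 ± 0.543 CPM in Klf4 siRNA, 1.74 ± 0.439 CPM in Scramble and 4.50 ± 0.61 CPM in Vehicle (SD, n = 4 each). Gdf15, a secreted stress hormone, rose in Klf4 siRNA over Vehicle, at 1.74 (edgeR SE 0.44, adjusted p = 0.00618), although the groups overlapped.

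Among synthetases outside the set and scaffold proteins of the multi-synthetase complex, 3 rose and 0 fell of 8 tested in Klf4 siRNA over Scramble, 0 rose and 4 fell of 8 in Scramble over Vehicle, and 2 rose and 3 fell of 8 in Klf4 siRNA over Vehicle. Calls made up 37.5%, 50% and 62.5% of these genes. The genes that rose in the first of these were Aimp1, Rars and Farsb, at 0.22, 0.19 and 0.12 (edgeR adjusted p = 0.0167, 0.017 and 0.046). Of the mitochondrial synthetases, 5 rose and 1 fell of 17 tested in Klf4 siRNA over Scramble, 3 rose and 4 fell of 17 in Scramble over Vehicle, and 7 rose and 2 fell of 17 in Klf4 siRNA over Vehicle. Calls made up 35.3%, 41.2% and 52.9% of the mitochondrial enzymes, against 36%, 53.9% and 45.4% of all genes. Pars2, for mitochondrial proline, rose in Scramble over Vehicle (log2 fold change 0.79, edgeR SE 0.10, adjusted p = 1.9e-05) while the cytosolic enzymes that passed there, in the set and outside it, fell. Fars2, also of the mitochondrial list, fell in that comparison (log2 fold change -0.63, edgeR SE 0.063, adjusted p = 2.2e-06). Of other amino acid transporters, 2 rose and 3 fell of 9 tested in Klf4 siRNA over Scramble, 2 rose and 4 fell of 9 in Scramble over Vehicle, and 1 rose and 4 fell of 9 in Klf4 siRNA over Vehicle. Calls made up 55.6%, 66.7% and 55.6% of these transporters. Slc6a9, a glycine transporter, fell in each comparison, at -0.34, -0.67 and -1.01 in the same order (edgeR adjusted p = 6.2e-04, 1.7e-06 and 3.0e-07).

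The targets of XBP1 and ATF6, the other arms of the unfolded protein response, which produce chaperones of the endoplasmic reticulum, formed a list of their own. Of them, 1 rose and 9 fell of 16 tested in Klf4 siRNA over Scramble, 0 rose and 14 fell of 16 in Scramble over Vehicle, and 0 rose and 16 fell of 16 in Klf4 siRNA over Vehicle. Calls made up 62.5% and 87.5% of the list in the first and second comparison. Their medians were -0.14, -0.71 and -0.88. Hspa5, the chaperone BiP, fell to 32.6% of Vehicle in Scramble (log2 fold change -1.62, edgeR SE 0.056, adjusted p = 8.0e-11) and to 27.9% in Klf4 siRNA (log2 fold change -1.84, edgeR SE 0.046, adjusted p = 2.0e-11). Hyou1, another chaperone, fell in Klf4 siRNA over Scramble (log2 fold change -0.44, edgeR SE 0.053, adjusted p = 4.2e-05). In that comparison, then, 15 of 36 members of the ATF4 set rose, with Ddit3 counted under both IDs, and 20 did not pass. Of the targets of the other arms, 9 of 16 fell. Over all genes tested, 18.5% rose and 17.5% fell there. The difference between the lists was not tested.

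**Figure D4:**
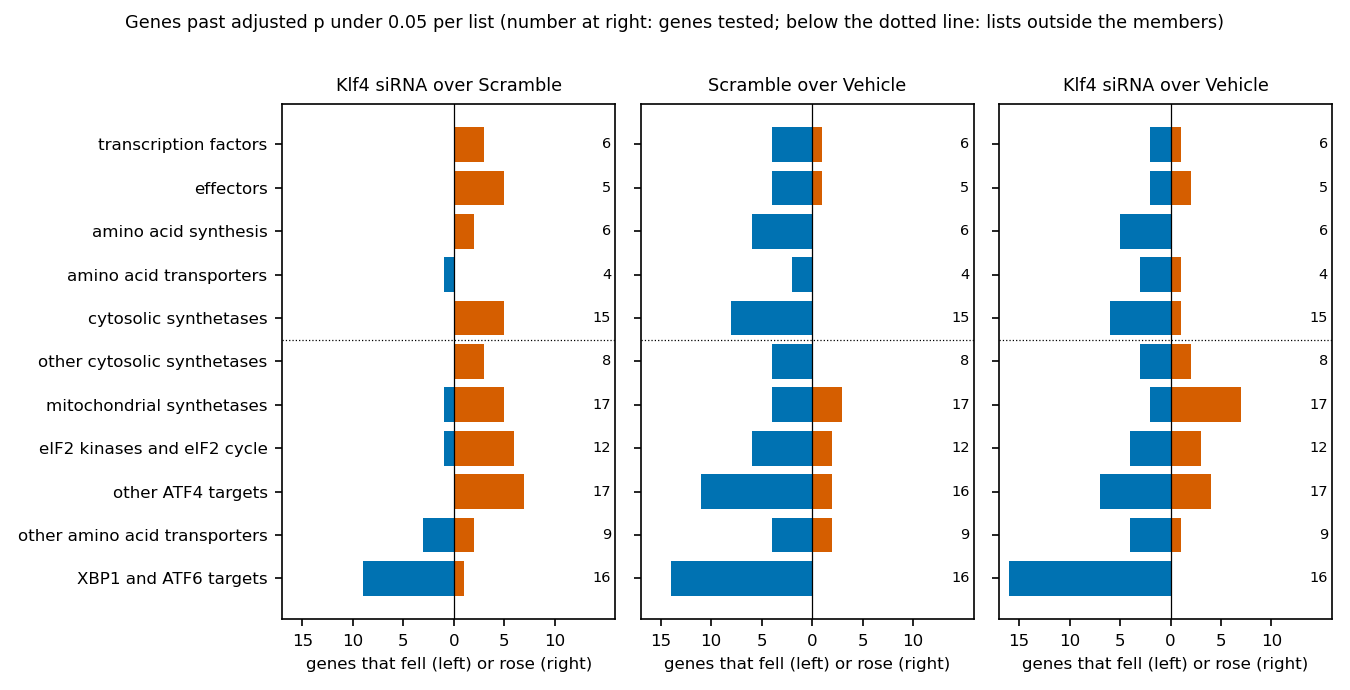
Number of genes per list that fell (bars to the left) or rose (bars to the right) at an adjusted p under 0.05 in the 3 comparisons, with the number tested at the right edge of each panel. Roles of the 36 genes stand above the dotted line and the other lists below it, where the targets of XBP1 and ATF6 show 9, 14 and 16 falls.

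The authors' deposited table placed 36 of 36 members on the same side of an FDR of 0.05 as the edgeR test in Klf4 siRNA over Scramble, 36 of 36 in Scramble over Vehicle and 35 of 36 in Klf4 siRNA over Vehicle, where Sars differed. Its marks for calls of at least 2-fold gave 1 member up and 0 down in Klf4 siRNA over Scramble, 1 up and 5 down in Scramble over Vehicle, and 1 up and 2 down in Klf4 siRNA over Vehicle. Ddit3 under its short ID, at 1.01, was the member past 2-fold in the first, just ahead of Trib3 at 0.99. Exon bases are shared with another gene by 13 of the 36 genes, among them Aars with Exosc6 and Psph with Cct6a, and the values of these 13 are uncertain to that extent.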

How the data were processed

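RNA of 12 samples was turned into libraries with a Takara SMART-Seq kit, per the labels' protocols, and titles gave the groups. Whether these libraries mark strand was not checked here. Each pair of groups has a table deposited by the authors, with raw counts by gene ID for every sample, per the file headers. The submitters' processing notes name STAR, Subread, STAR-Fusion, FastQC, edgeR and the build mm10, without saying what each did. The siRNA sequences and the way reads in overlapping genes were counted are not stated in these sources. The RPKM values, the log2 fold changes, the p-values with their FDR and a score of 1, 0 or -1 per gene are the authors' own, per the file headers. RPKM values were used here only to compare levels between genes.

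Counts were tested with edgeR 4.0.16 (quasi-likelihood test, TMM, default filter on low counts) and limma 3.58.1 in R 4.3.3, over all genes and the 8 samples of each comparison, without a block. This gave biological coefficients of variation of 8.01%, 7.3% and 9.01% for Klf4 siRNA with Scramble, Scramble with Vehicle and Klf4 siRNA with Vehicle. Adjusted p-values are Benjamini-Hochberg over all genes tested, and a gene is called at an adjusted p under 0.05. An SE is the size of the log2 fold change divided by the square root of F, and a 95% interval is normal on that scale. A count carries counting error besides the spread between samples. Gene positions are from GENCODE M21, on the assembly of mm10, and gene starts from RefSeq. The promoter window of 1 member is not reported here.

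Members, lists and tests were chosen with earlier results of these data known. Every member is named, with values in every sample for the 2 called members of each role and comparison with the largest change, and others were given per sample where the text turned on them. Up to 3 called genes with the largest change per further list and comparison could be named, of which the text names part. The further lists were other cytosolic synthetases, mitochondrial synthetases, eIF2 kinases and eIF2 cycle, other ATF4 targets, other amino acid transporters, and XBP1 and ATF6 targets. Alternatives were other scalings, DESeq2 1.42.0, no filter, all 12 samples in the fit, a replicate block and samples left out.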

Additional observations from a re-analysis of the deposited data

Results flagged for a closer look

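In 6 of 108 sets of 4 samples (36 genes in 3 groups), 1 sample lay so far from the other 3 that its gap exceeded Dixon's 95% value for its share of the range. Chance alone gives about 1 in 20. Cebpb was at 47.0 CPM in Klf4 siRNA 1, against 122.6 to 135.9 CPM in the other samples of that group. It was also at 189 CPM in Vehicle 1, against 242 to 252 CPM in the other Vehicle samples. Chac1 was at 9.80 CPM in Scramble 1, above 8.78 to 8.92 CPM in the others. Phgdh was at 253 CPM in Vehicle 3, below 281 to 286 CPM in the others. Aars was at 905 CPM in Vehicle 2, above 775 to 792 CPM in the others. Mars was at 177 CPM in Scramble 3, below 184 to 185 CPM in the others. What sets these samples apart was not tested.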

How the results depend on the processing

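No member changed sign while called under any of the alternatives run. Over all members, comparisons and alternatives, 1498 values kept their side of the threshold, 46 lost their call and 40 gained one. Members that rose in Scramble over Vehicle numbered 4 under upper-quartile scaling, in place of 2, and 2 to 4 with 1 sample left out. Members that rose in Klf4 siRNA over Vehicle numbered 3 in place of 5 without Klf4 siRNA samples 1 and 4, and 4 to 6 with 1 sample left out, while falls there numbered 14 to 22. In Klf4 siRNA over Scramble, 14 to 16 rose and 1 fell with 1 sample left out. The cause of these shifts was not tested. Same-numbered samples were not taken as pairs, since in no comparison did all 4 correlations of their deviations exceed 0.1. The correlation exceeded it for 1 of 4 numbers in Klf4 siRNA with Scramble (-0.31 to 0.15), 0 of 4 in Scramble with Vehicle (-0.34 to -0.035) and 3 of 4 in Klf4 siRNA with Vehicle (0.29, 0.12, 0.19 and -0.057 for numbers 1 to 4). Of 4 numbers, 1, 0 and 1 correlated best with their own in the same order. The replicate block gave 15 rises and 1 fall, 2 and 24, and 5 and 19 among members, with some members exchanged. Under it, in Klf4 siRNA over Scramble, Ddit4 lost its call (log2 fold change 0.29, edgeR adjusted p = 0.0844) and Iars gained one (0.17, edgeR adjusted p = 0.041). Slc1a5 lost its call in Klf4 siRNA over Vehicle (0.35, edgeR adjusted p = 0.0696), and Ddit3 (-0.14, edgeR adjusted p = 0.0446) and Wars (0.16, edgeR adjusted p = 0.0398) gained one there.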
